A study of Mus musculus with 2 samples.

Results

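The ETS and RUNX transcription factors and 3 factors shared by blood and endothelium (Tal1, Lyl1 and Lmo2) were examined in RNA sequencing of the mouse embryonic heart. Members were taken by gene symbol from a list of 33, and 32 of them were in the tables, among 34236 symbols in all. Of the 32, 25 belong to the ETS family, 3 are Runx genes, 1 is their partner Cbfb and 3 are the blood and endothelial factors. Spi1 was not listed under that symbol and was left out of all counts of members. Its gene ID carries the older symbol Sfpi1, through which it entered the pair ratios to Spib and Spic and their counts. Its values are given with the Spi class below. The samples were 2 libraries of 1 group, replicate 1 and replicate 2, from untreated hearts at embryonic day 12.5 on a mixed C57BL/6 x 129S6 background, with no genotype, allele or agent given. Nothing in the labels says whether they came from separate embryos or from pools, so the spread between them may be technical. With a single group there was no contrast to test, and the results are levels, their order and their spread.

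ETS factors bind DNA through a shared domain that reads a GGAA core. They differ in where they are made and in the partners and kinases that control them. Erg, Fli1 and Etv2 are known for building and keeping endothelium and endocardium, and the Pea3 and ternary complex classes for relaying ERK signals. RUNX proteins bind DNA together with Cbfb, and Runx1 is needed for the first definitive blood stem cells, Runx2 for bone and Runx3 for sensory neurons and T cells. Tal1 and Lyl1 are basic helix-loop-helix proteins that join the bridging proteins Lmo2 and Ldb1 on DNA in blood and endothelial cells.

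Values are FPKM, fragments scaled to transcript length and to library size, and means are given ± SD over the libraries (n = 2). Over all symbols replicate 1 held 388230 FPKM and replicate 2 held 382561 FPKM. The number of fragments sequenced is unknown, but 1 fragment stood for 1.33 times as much FPKM in replicate 2 as in replicate 1, read from the commonest ratio among symbols under 0.1 FPKM. As a check of the tissue label, all 10 cardiomyocyte genes passed 1 FPKM in each library, led by Actc1 at 4314 ± 98.4 FPKM. In whole tissue, fewer cells of a type and less RNA per cell cannot be told apart.

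The 32 genes fell into a high and a low set with an empty stretch between. In both libraries 21 of 32 members (65.6%) reached 1 FPKM, against 52.4% of 22240 protein-coding symbols. All 21 had a mean above 5 FPKM, and 11 were below 1 FPKM in both libraries. No member had a mean between 1 and 5 FPKM, a range that held 26.4% of the protein-coding symbols whose mean was at least 1 FPKM. The median of the 32 members was 7.20 FPKM, and that of the protein-coding symbols 1.68 FPKM. Over the genes that reached 1 FPKM in both libraries, the medians were 11.4 FPKM for members and 10.9 FPKM for protein-coding symbols.

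**Figure D1:**
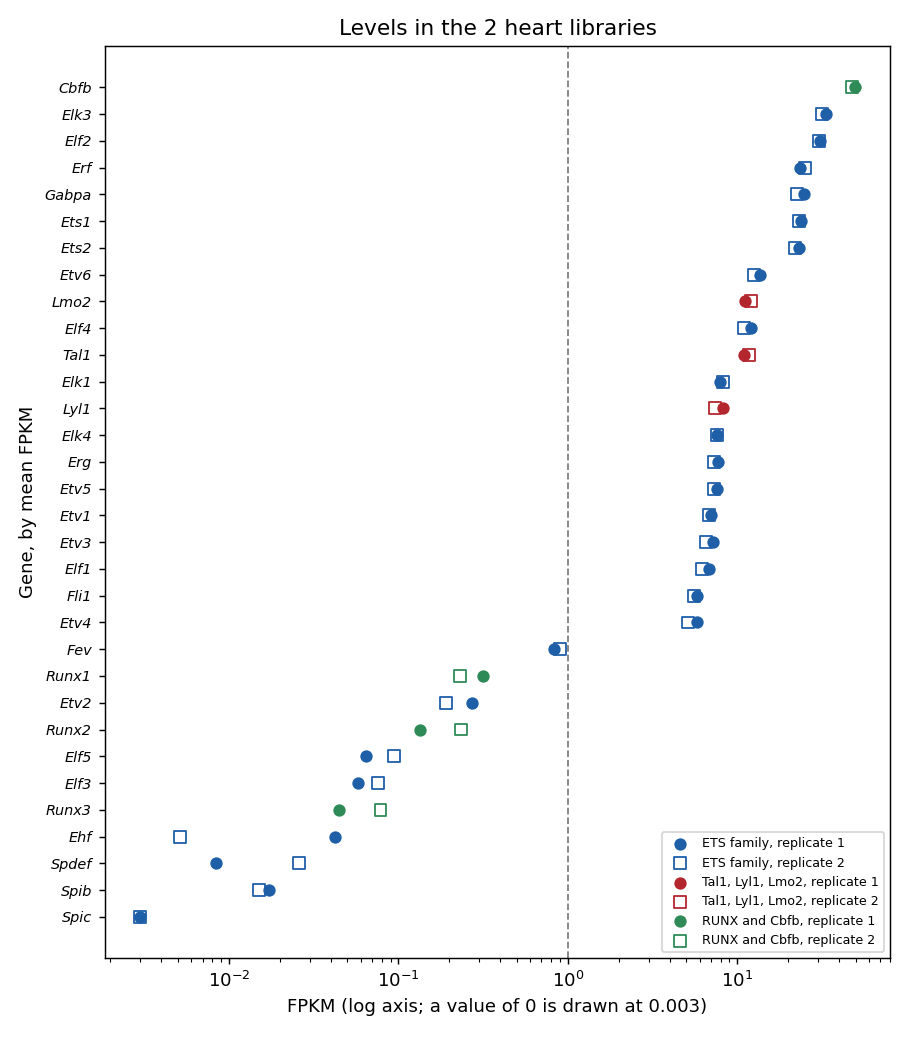
FPKM of the 32 genes (log x axis) in replicate 1 (filled circles) and replicate 2 (open squares), ordered by mean, with a dashed line at 1 FPKM. From Cbfb down to Etv4 21 genes stand to the right of the line, and from Fev down to Spic 11 stand to the left.

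Stretches upstream of start sites are shown for 3 genes, to set the CpG content of a promoter in the high set beside that of promoters in the low set. RefSeq promoter windows on GRCm38.p6, which hold 250 bases before and 50 bases after a start site, matched 27 of the 32 members with 40 windows. Ehf, Ets1, Etv4, Fli1 and Lmo2 had no entry. The 100 bases before the start are given below for Elk3 (chr10:93311160-93311259, minus strand), which was in the high set, and for Spic (chr10:88683024-88683123, minus strand), which was listed at 0. Runx1, a gene of the low set, has a proximal start (chr16:92697330-92697429, minus strand) and a distal start (chr16:92826075-92826174, minus strand). For 35 of the 40 windows the first bases from the start on were found in a GENCODE M21 transcript of the gene. Those of Elk3 and of the proximal start of Runx1 were not found, so these starts are less certain. Each CpG is in capitals.
Elk3: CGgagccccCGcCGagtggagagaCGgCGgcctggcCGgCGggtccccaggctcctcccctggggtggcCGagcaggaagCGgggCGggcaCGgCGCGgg
Spic: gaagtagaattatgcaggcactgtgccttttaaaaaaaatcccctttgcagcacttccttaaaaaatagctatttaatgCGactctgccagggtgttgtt
Runx1 proximal: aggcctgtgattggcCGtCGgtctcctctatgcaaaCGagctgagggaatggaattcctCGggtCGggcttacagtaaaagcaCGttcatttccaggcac
Runx1 distal: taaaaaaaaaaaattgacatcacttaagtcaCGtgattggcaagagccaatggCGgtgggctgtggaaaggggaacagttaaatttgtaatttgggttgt

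The stretch of Elk3 holds 13 CpG, that of Spic 1, the proximal stretch of Runx1 6 and its distal stretch 2. A window was counted as CpG-rich with a GC content of at least 50% and a CpG frequency of at least 0.6 of that expected from its bases. Among members at 1 FPKM in both libraries 14 of 17 had a CpG-rich window, and Elk1, Lyl1 and Etv1 had none. Among the members below that level 3 of 10 had one, namely Fev, Runx1 and Runx3. Over all genes with a window the shares were 76.4% of 8484 genes at 1 FPKM in both libraries and 18.7% of 7865 other genes. The split of the members (82.4% and 30%) is thus near that of genes at large. Runx3 had the window with the most CpG of all 40, at 45, with a mean level of 0.0616 FPKM.

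**Figure D2:**
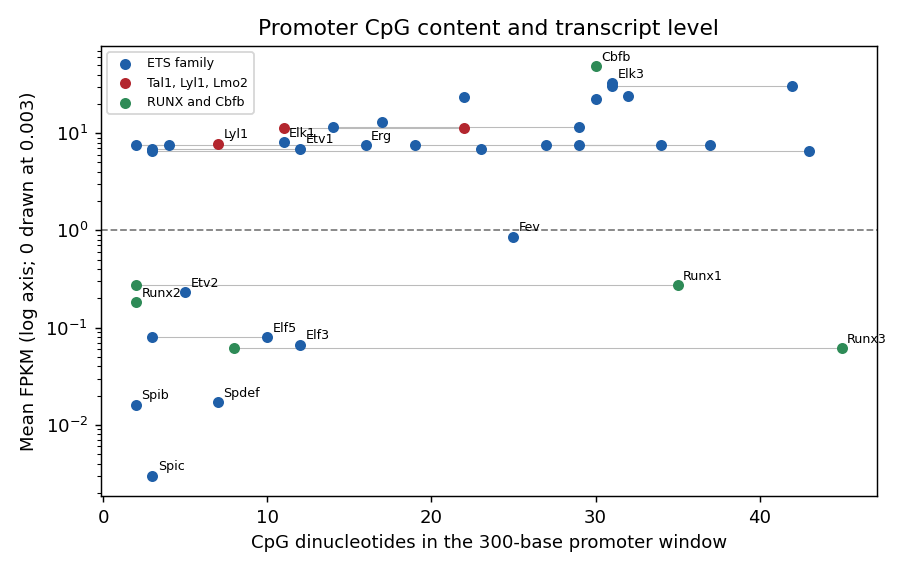
CpG dinucleotides in each 300-base promoter window (x axis) against the mean FPKM of the gene (log y axis), with windows of 1 gene joined by a line and a dashed line at 1 FPKM. Most low genes lie at 12 CpG or fewer, and Fev, Runx1 and Runx3 stand apart at 25, 35 and 45.

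The ETS core is too common to tell these promoters apart. The letters GGAA, on either strand, were in 38 of 40 member windows and in 96.0% of all 32851 windows. The longer form CCGGAAG, which contains GGAA, was in 3 of 40 member windows (7.5%) and in 8.86% of all windows. They are shown as the member windows that hold it, a share no higher than that of all windows, and belong to the ETS genes Gabpa (chr16:84835001-84835067, plus strand) and Elk4 (chr1:132007522-132007588, plus strand) and to Lyl1 (chr8:84701245-84701311, plus strand). The match lies 93, 68 and 182 bases before the start site, in that order, and is in capitals below.
Gabpa: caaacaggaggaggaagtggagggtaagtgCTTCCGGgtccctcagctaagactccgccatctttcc
Elk4: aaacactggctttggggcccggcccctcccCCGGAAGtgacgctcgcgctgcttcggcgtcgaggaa
Lyl1: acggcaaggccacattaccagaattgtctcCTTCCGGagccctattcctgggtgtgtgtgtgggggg

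The RUNX letters TGTGGT, on either strand, were in 4 of 40 member windows and in 16.8% of all windows. Runx1, at its distal start, Runx2 and Runx3 each had a window with them, and the other was that of Etv1. The letters GATAA were in 4 of 40 member windows, of Tal1, Erg, Fev and Elf5, and in 25.4% of all windows. A match is a description of the letters only.

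In order of level, Cbfb stood alone at the top. It was at 49.4 FPKM in replicate 1 and 47.7 FPKM in replicate 2, above 94.5% of protein-coding symbols. A difference between neighbouring genes was read as separate where both libraries gave the same order and the mean log2 ratio, after adding 1 FPKM, was above 0.32. Between the libraries, 95% of single genes differed by less than that. By this rule 3 of the 20 steps between neighbours in the high set were separate. They lay below Cbfb, between Ets2 and Etv6, and between Tal1 and Elk1. The step from Elf2 to Erf, at 0.317679, fell just short of the limit of 0.317848. Of all 210 pairs in the high set 161 were separate. The limit and the SD of a ratio reflect only how closely the 2 libraries repeat each other. Errors that both libraries share, such as reads of overlapping genes or of copies, are not covered by the rule.

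The upper group after Cbfb held 6 ETS genes between 22 and 33 FPKM. Elk3, a ternary complex factor that joins the serum response factor Srf on DNA and is known from vessel growth, was highest at 33.4 FPKM in replicate 1 and 31.5 FPKM in replicate 2. Elf2 followed at 30.7 and 30.2 FPKM. Both libraries placed these genes above the other 4, whose ranges partly overlapped. Erf, a repressor that ERK moves out of the nucleus, was at 23.5 FPKM in replicate 1 and 25.0 FPKM in replicate 2. Gabpa, the DNA-binding subunit of a factor known for genes of mitochondria and ribosomes, was at 25.0 and 22.6 FPKM. Ets1, which endothelium and neural crest express, was at 23.7 and 23.2 FPKM. Its close relative Ets2 was at 23.1 and 21.9 FPKM. Ets1 and Ets2 differed by a log2 ratio of 0.06 ± 0.03, within the spread of single genes.

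A middle group ran from Etv6 to Tal1. Etv6, a repressor first known from leukaemia translocations, was at 13.7 FPKM in replicate 1 and 12.5 FPKM in replicate 2. Elf4 was at 12.0 and 11.0 FPKM. Etv6 exceeded Etv3, another repressor of the family at 6.91 ± 0.471 FPKM, by a log2 ratio of 0.83 ± 0.00025. Within the Elf class, Elf1 at 6.48 ± 0.422 FPKM was below Elf4 (-0.74 ± 0.0041) and Elf2 (-2.07 ± 0.07).

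Erg, Fli1 and Etv2, known for building and keeping endothelium, were not the highest of the family. Elk3, known from vessel growth, and Ets1, which endothelium expresses, stood above them. Erg was at 7.70 FPKM in replicate 1 and 7.32 FPKM in replicate 2. Fli1 was at 5.83 and 5.59 FPKM. The libraries did not overlap between these genes, and the log2 ratio of Erg to Fli1 was 0.34 ± 0.01, just above the limit of 0.32 for single genes. With a pseudocount of 0.1 FPKM the ratio was 0.39 and the limit 0.42, so that the call was lost. Ets1 exceeded Erg by 1.53 ± 0.02. Fev, the third gene of the Erg class and a regulator of serotonin neurons, was at 0.826 and 0.897 FPKM, and Fli1 exceeded it by 1.85 ± 0.07. Etv2, which acts for a short time at the origin of blood and endothelium, was at 0.272 FPKM in replicate 1 and 0.191 FPKM in replicate 2.

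Endothelial RNA was present in the same libraries. Beside 52.4% of protein-coding symbols, all 20 endothelial and endocardial markers passed 1 FPKM in each library. Their median was 23.9 FPKM, led by Egfl7 at 70.1 ± 1.29, Eng at 63.3 ± 2.95, Plvap at 44.3 ± 0.330 and Cd34 at 39.4 ± 0.881 FPKM. Erg stood at 0.197 of the level of the endothelial cadherin Cdh5 in replicate 1 and at 0.206 in replicate 2. For Fli1 the fractions were 0.149 and 0.158. In the list of endothelial transcription factors 17 of 19 genes passed 1 FPKM in each library, beside the same 52.4%, and the median was 7.51 FPKM. The exceptions were Etv2 and Sox17, at 0.712 ± 0.0323 FPKM, and the highest were Nr2f2 at 17.6 ± 0.359 and Mecom at 13.1 ± 0.00311 FPKM. That list includes Erg, Fli1, Etv2, Tal1, Lyl1 and Lmo2 themselves.

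The Pea3 class, whose genes FGF and ERK signals induce in many tissues, was expressed as a set of 3. Etv5 was at 7.62 FPKM in replicate 1 and 7.34 FPKM in replicate 2. Etv1, which marks atrial and conduction muscle, was at 7.02 and 6.82 FPKM, and Etv4 was at 5.83 and 5.12 FPKM. Etv5 exceeded Etv4 (log2 ratio 0.39 ± 0.08) but was not separate from Etv1 (0.10 ± 0.0074). All 12 feedback genes of ERK signalling passed 1 FPKM in each library, beside 52.4% of protein-coding symbols. Their median was 6.02 FPKM, below the 10.9 FPKM of protein-coding symbols that reached 1 FPKM in both. Of the feedback genes, Spry2 was at 21.2 ± 0.964, the phosphatase gene Dusp6 at 16.3 ± 0.363 and Spred1 at 14.1 ± 0.799 FPKM. Etv1 matches the processed pseudogene Gm5454 at 98.2% identity over 1453 bases, and Etv5 matches Gm4798 at 98.6% over 1700 bases. Gm5454 was listed at 0.256 FPKM in replicate 1 and 0.408 FPKM in replicate 2, far below Etv1, and no value was matched to Gm4798. Reads may have been split with a copy, so the levels of Etv1 and Etv5 are uncertain.

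In the ternary complex class Elk3 exceeded Elk1, at 8.09 ± 0.222 FPKM, by a log2 ratio of 1.88 ± 0.09. It exceeded Elk4, at 7.59 ± 0.0122 FPKM, by 1.96 ± 0.06. Their DNA partner Srf was at 38.1 ± 2.30 FPKM, and Elk3 stood at 0.840 of Srf in replicate 1 and 0.864 in replicate 2. Of the other ETS partners, the kinase gene Mapk3 was at 41.9 ± 0.198 FPKM. In the whole list 13 of 15 genes reached 1 FPKM in both libraries, beside 52.4% of protein-coding symbols. Gabpa exceeded Gabpb1, which codes for its activating subunit and was at 15.3 ± 0.422 FPKM, by 0.60 ± 0.06. Gabpb2 was at 7.02 ± 0.207 FPKM. The partners of PU.1 in lymphoid and myeloid cells were lower, with Irf8 at 1.04 ± 0.0514 and Irf4 at 0.0119 ± 0.00509 FPKM, and Pax5 was listed at 0.

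Summed over the 25 ETS genes, the libraries held 249.98 and 240.05 FPKM, which was 0.0644% and 0.0627% of all FPKM. The 7 highest genes made up 69.2% of the ETS sum in replicate 1 and 69.6% in replicate 2. By class, Elf1, Elf2 and Elf4 held 19.8% ± 0.0371, the ternary complex factors 19.6% ± 0.107 and Ets1 with Ets2 18.8% ± 0.0411. The repressors Erf, Etv3 and Etv6 held 18.1% ± 0.413, Gabpa 9.70% ± 0.404 and the Pea3 class 8.11% ± 0.115. The Erg class held 5.75% ± 0.00581 and Etv2 0.0942% ± 0.0207. The epithelial class (Elf3, Elf5, Ehf and Spdef) held 0.0766% ± 0.0104, and Spib with Spic 0.00661% ± 0.000443.

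**Figure D3:**
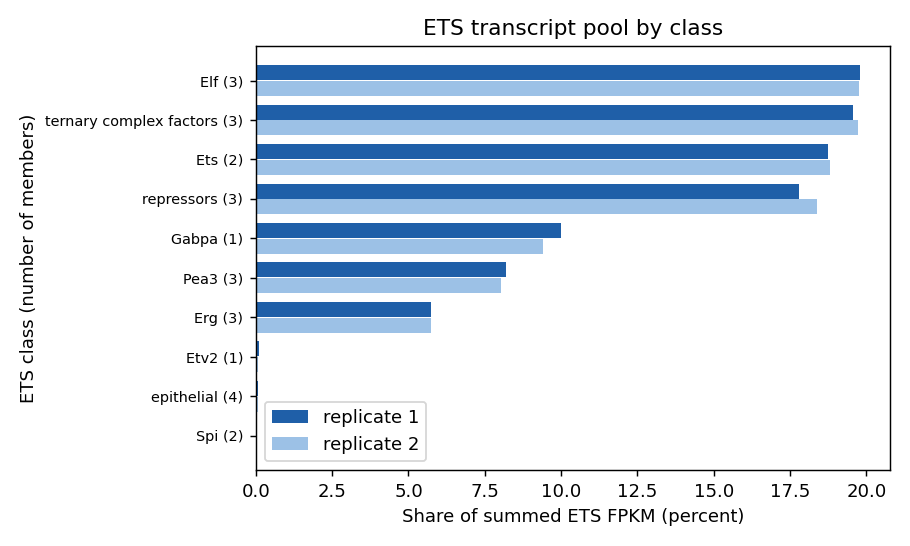
Share of the summed ETS FPKM (percent) held by each class in replicate 1 (dark bars) and replicate 2 (light bars), with the number of genes in brackets. The Elf, ternary complex, Ets and repressor classes each hold between 17.8% and 19.8% in either library, and the Erg class holds 5.75% on average.

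The ETS genes of epithelia were near the floor. Elf5, known from mammary and trophoblast cells, was at 0.0645 FPKM in replicate 1 and 0.0944 FPKM in replicate 2. Elf3 was at 0.0579 and 0.0761 FPKM, a ratio of 1.31 that is close to the 1.33 expected for equal numbers of fragments. Ehf was at 0.0424 FPKM in replicate 1 and 0.00515 FPKM in replicate 2, and Spdef at 0.00838 and 0.0259 FPKM. Their order between the libraries was therefore opposite, at values that rest on few fragments. Of 14 epithelial markers 3 reached 1 FPKM in both libraries, beside 52.4% of protein-coding symbols. These 3 were the keratins Krt19 at 13.4 ± 0.619, Krt18 at 10.7 ± 0.777 and Krt8 at 3.85 ± 0.366 FPKM, which the epicardium also expresses. Cdh1, the epithelial cadherin, was at 0.0166 ± 0.00762 FPKM.

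In the Spi class, whose founder PU.1 (Spi1) drives macrophage fate, the gene listed as Sfpi1 was at 1.02 FPKM in replicate 1 and 0.892 FPKM in replicate 2, on both sides of the limit of 1 FPKM. Spib, a lymphoid factor, was at 0.0173 and 0.0151 FPKM, and Spic, known from red pulp macrophages, was listed at 0 in both. Of 15 macrophage and myeloid markers 9 passed 1 FPKM in each library, not far above the 52.4% of protein-coding symbols. The median of the markers was 1.84 FPKM, and the list was led by Lyz2 at 21.7 ± 0.805 and Laptm5 at 5.72 ± 0.114 FPKM. Ptprc, the common leukocyte antigen, was at 0.191 ± 0.0262 FPKM. Of 12 known PU.1 target genes, some of them also on the former list, 7 reached 1 FPKM in both libraries, again near that share. Among them were Csf2ra at 5.70 ± 0.0812 and Csf1r at 3.32 ± 0.365 FPKM. The neutrophil gene Elane was listed at 0.

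Tal1, Lmo2 and Lyl1 were all in the high set. Lmo2 was at 11.1 FPKM in replicate 1 and 12.1 FPKM in replicate 2. Tal1 was at 11.0 and 11.8 FPKM, and the log2 ratio of Lmo2 to Tal1 was 0.02 ± 0.01. Lyl1 was at 8.23 and 7.41 FPKM, below both others in each library (Tal1 over Lyl1 0.49 ± 0.16, Lmo2 over Lyl1 0.52 ± 0.17). Tal1 and Lmo2 were thus somewhat higher in replicate 2, and Lyl1 in replicate 1.

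Partners of the Tal1 complex were also expressed, 13 of 16 at 1 FPKM or more in each library, beside 52.4% of protein-coding symbols. Their median was 9.74 FPKM. The bridging gene Ldb1 was at 67.8 ± 0.569 FPKM, and Lmo2 stood at 0.163 and 0.179 of it in the libraries. The E proteins that pair with Tal1 were at 37.5 ± 0.427 (Tcf3), 29.7 ± 0.271 (Tcf12) and 16.1 ± 1.02 FPKM (Tcf4). Lmo4, a relative of Lmo2, was at 37.4 ± 0.555 FPKM, whereas Lmo1, Lmo3 and Tal2 were below 1 FPKM. Of the GATA factors that enter the complex, Gata2 was at 4.54 ± 0.149 FPKM and exceeded Gata1, at 1.36 ± 0.139 FPKM, by a log2 ratio of 1.23 ± 0.12. Tal1 stood at 7.53 and 9.31 times the level of Gata1, the erythroid and megakaryocyte member.

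Red cell RNA was abundant in these libraries, and all 14 erythroid genes reached 1 FPKM in both. The globin Hbb-y was at 15962 ± 813 FPKM, while the erythroid regulator Klf1 was at 1.60 FPKM in replicate 1 and 2.09 FPKM in replicate 2. Of 10 megakaryocyte and platelet genes 5 reached 1 FPKM in both libraries, near the 52.4% of protein-coding symbols. All 6 with a mean of at least 1 FPKM were higher in replicate 1. So were 66.6% of all symbols at that level, 17 of 20 endothelial and 9 of 10 cardiomyocyte genes. The platelet list summed to 39.2 FPKM in replicate 1 and 30.2 FPKM in replicate 2. The part of blood and endothelial cell numbers in the levels of Tal1, Lyl1 and Lmo2 was not tested.

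The Runx genes were low beside their partner. Runx1 was at 0.317 FPKM in replicate 1 and 0.233 FPKM in replicate 2. Runx2 was at 0.134 and 0.234 FPKM, so that the order of Runx1 and Runx2 differed between the libraries. Runx3 was lowest at 0.0446 and 0.0785 FPKM. Together they summed to 0.496 and 0.545 FPKM, and the level of Cbfb was 99.7 times that sum in replicate 1 and 87.5 times in replicate 2. The Runx2 symbol has a further row in the tables, with values so near 0 that it adds nothing to the sum. Runx3 matches Hnrnpd at 99.0% identity over 97 bases, and many other genes over shorter stretches. Hnrnpd was at 154 FPKM in replicate 1 and 151 FPKM in replicate 2. Whether reads of such copies enter the low value of Runx3 was not tested.

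All 14 partners and corepressors of RUNX proteins passed 1 FPKM in each library, beside 52.4% of protein-coding symbols. Their median was 8.09 FPKM, below the 10.9 FPKM of protein-coding symbols that reached 1 FPKM in both. The RUNX partners included Yap1 at 47.0 ± 0.865, its relative Wwtr1 at 20.8 ± 1.22, Sin3a at 14.7 ± 1.96 and the Groucho gene Tle2 at 11.5 ± 0.469 FPKM. Markers of cell types known for Runx genes were mostly low. Among 12 lymphoid genes 1 reached 1 FPKM in both libraries, Ebf1 at 4.28 ± 0.0952 FPKM, a gene that stromal cells also express. Lck was at 0.994 FPKM in replicate 1 and 1.02 FPKM in replicate 2, on both sides of the limit, and Cd3d and Ms4a1 were listed at 0. Among 11 bone and cartilage genes only Col2a1 reached 1 FPKM in both libraries, at 20.5 ± 1.48 FPKM, with Bglap and Ibsp listed at 0. Of 10 progenitor and haemogenic genes 6 reached 1 FPKM in both libraries, not far above the 52.4% of protein-coding symbols. They were Cd34, Meis1 at 25.5 ± 0.00926, Mecom, Procr at 5.51 ± 0.822, Kit at 3.28 ± 0.471 and Hlf at 2.74 ± 0.209 FPKM. The other 4 were Myb at 0.414 ± 0.00366, Ly6a at 0.241 ± 0.0283, Hoxa9 at 0.130 ± 0.0331 and Gfi1 at 0.0223 ± 0.0103 FPKM.

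**Figure D4:**
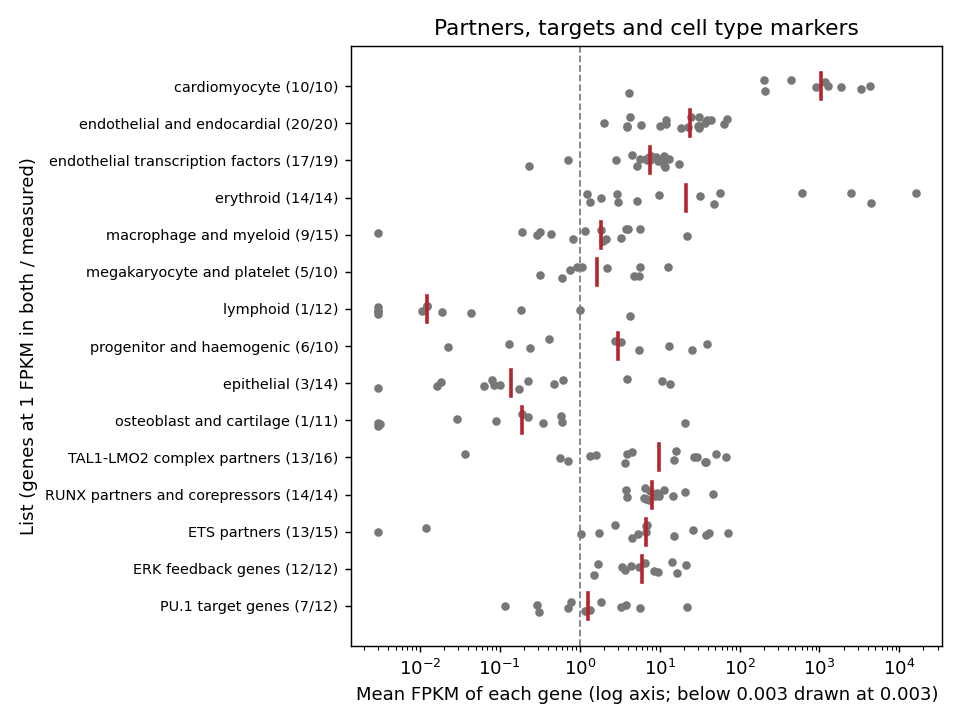
Mean FPKM (log x axis) of the genes on each list of partners, targets and cell type markers (grey points), with the median as a red bar, a dashed line at 1 FPKM, and the number at 1 FPKM in both libraries over the number measured. Endothelial and erythroid lists lie to the right of the line, lymphoid, epithelial and bone lists mostly to the left. Of 22240 protein-coding symbols 52.4% reached 1 FPKM in both libraries.

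On the genome, 6 of the ETS genes form 3 pairs that point away from each other (mm9, positions as in the tables). Fli1 (chromosome 9, 32229793 to 32348974) lies 94.8 kb from Ets1 (32443806 to 32565405), and Erg (chromosome 16, 95580776 to 95808200) lies 115 kb from Ets2 (95923682 to 95942658). No listed gene stands between either pair. Ehf (chromosome 2, 103103590 to 103143435) and Elf5 (103251845 to 103291146) are 108 kb apart, with no protein-coding gene between. In each of the first pairs the Ets gene was the higher one. Ets1 was at 4.07 and 4.15 times Fli1 in replicates 1 and 2, and Ets2 at 2.997 ± 0.00595 times Erg. Both genes of the Ehf and Elf5 pair were below 0.1 FPKM. These ratios were taken after the values had been seen.

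Other genes overlap 15 of the 32 members, and for 8 members the overlapping gene had a mean of at least 1 FPKM. The kit named in the labels does not mark strand, so reads in shared exons could not be assigned by strand. Gabpa overlaps Atp5j, a gene of the ATP synthase at 329 ± 12.3 FPKM, by 701 bases at their start sites. Lyl1 lies wholly within the span of Nfix, at 8.07 ± 0.274 FPKM, on the opposite strand. Elk3 overlaps Cdk17, at 11.8 ± 0.699 FPKM, and Elk4 overlaps Mfsd4, at 6.72 ± 0.114 FPKM. Elk1 overlaps Uxt, at 7.34 ± 0.873 FPKM, on the same strand. Elf1, Elf2 and Runx2 overlap Wbp4 (8.20 ± 0.0123 FPKM), 4930577N17Rik (1.26 ± 0.349 FPKM) and Supt3h (7.04 FPKM in replicate 1 and 7.96 FPKM in replicate 2). How the counting shared such reads was not tested.

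Between the libraries the members in the high set differed little. The log2 difference of replicate 2 from replicate 1, after adding 1 FPKM, ranged in size from 0.0029 for Elk4 to 0.16 for Etv4. None of the 21 passed 0.32, the limit that 5% of 12637 symbols with a mean of 1 FPKM or more exceed by construction. Nor did any of the 21 pass the 95th percentile of genes at a level similar to its own. None of the 21 differed 2-fold, against 0.347% of 8924 symbols with a mean of 5 FPKM or more. Of the 21, 17 were higher in replicate 1, beside 66.6% of all symbols whose mean reached 1 FPKM, and their median difference was -0.05 beside -0.04 for those symbols. The 4 that were higher in replicate 2 were Erf, Lmo2, Tal1 and Elk1. In the low set Runx1 and Etv2 were higher in replicate 1, and Runx2, Runx3 and Elf5 in replicate 2. The ratios between the libraries there ran from 0.122 for Ehf to 3.09 for Spdef.

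**Figure D5:**
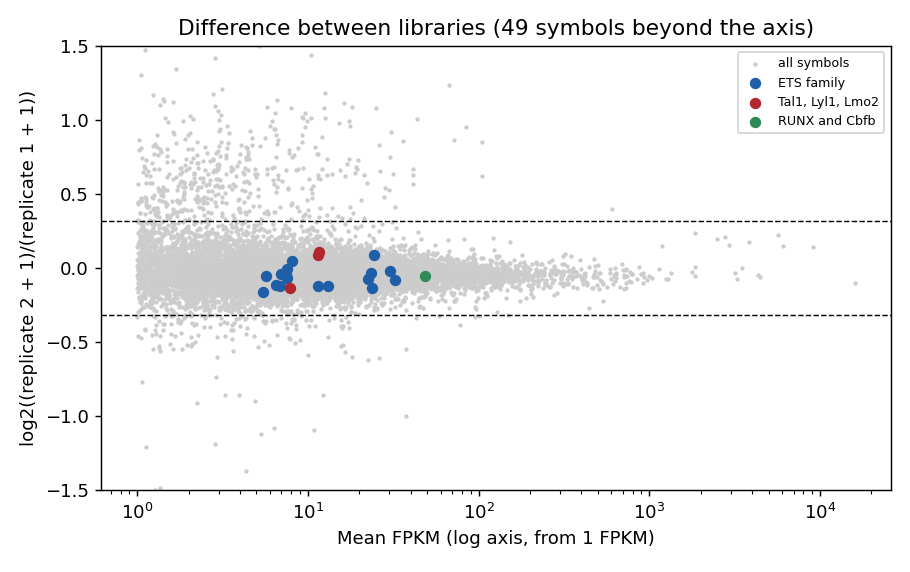
Mean FPKM (log x axis) against the log2 difference between the libraries for all symbols at 1 FPKM or more (grey) and for the 21 members at that level (coloured), with dashed lines at 0.32 on either side of 0. All 21 members lie inside the lines.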

How the data were processed

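RNA was sequenced from 2 heart libraries at embryonic day 12.5. Trizol extraction and a TruSeq RNA v2 kit were used, per the labels' protocols. The authors deposited 1 table of FPKM values per library. The tools named are GSNAP, Cufflinks and Cuffnorm and the builds mm9 and hg19, per the submitters' processing notes, with the annotation and read assignment not given in the sources used here. Chromosome 1 genes end at 197054592, beyond 195291439 in GRCm38, so positions are those of mm9.

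Rows of the same symbol were summed (37620 rows, 34236 symbols). Log2 values used a pseudocount of 1 FPKM, which understates differences of low genes. Detection meant 1 FPKM in both libraries. No test was run: with 2 libraries of 1 group an exact sign-flip test cannot go below a two-sided p of 0.5. The deposited values are not counts, so no count model was used and depth is unknown.

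Members, lists (15) and pairs (23) were chosen with earlier results of these data known. All members, both genes of a pair, partners and overlapping genes could be named, and of each list the 4 highest genes and up to 3 of the lowest under 1 FPKM; further list genes were named after their values were seen. Alternatives were other detection limits, a pseudocount of 0.1, the highest row per symbol, upper-quartile rescaling and each library alone. Promoter windows came from RefSeq (GRCm38.p6), and copies were sought in GENCODE M21 transcripts with BLAST 2.17.0 (at least 98% identity over 75 bases). The steps were tested on simulated data. Python 3.11.15, NumPy 2.4.6, pandas 2.3.3 and Matplotlib 3.10.9 were used.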

Additional observations from a re-analysis of the deposited data

How the results depend on the processing

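The count of 21 detected members was 21 or 22 under every alternative tried, the latter at 0.5 FPKM, where Fev enters. Upper-quartile rescaling, a log2 shift of -0.0089, changed no count or direction given for members or their pairs. Leaving out members under 1 FPKM put the Elf, Erg and Ets classes at 19.9%, 5.42% and 18.9% of the ETS sum, and adding Spi1 through its gene ID, chosen after the data were seen, put them at 19.7%, 5.72% and 18.7%. Both change the denominator, the former takes Fev out of the Erg class, and the latter raised the Spi class from 0.00661% to 0.395%. With a pseudocount of 0.1 FPKM 15 of 23 pair ratios moved by more than their SD, none in direction. The limit was then 0.42, Erg over Fli1 (0.39) fell below it and Runx1 over Runx3 (1.21) passed it, so the count of 18 pairs past the limit does not cover the same pairs. Both limits came from symbols with a mean of at least 1 FPKM. They cannot judge a ratio with a gene below that level, such as Runx1, Runx3, Fev, Spi1, Spib or Spic, though the 18 include such pairs. Ratios to genes near 0 grew most, as that of Spi1 to Spib, from 0.94 to 3.18. Runx1 over Runx2 was 0.22 in replicate 1 alone and -0.0018 in replicate 2 alone, a reversal. At 0.5 FPKM 9 megakaryocyte, 2 lymphoid and 2 bone and cartilage genes were detected, and at 2 FPKM 5 macrophage genes and 4 PU.1 targets. The share of all protein-coding symbols was taken at 1 FPKM only. Whether the counts at 0.5 and 2 FPKM are near the share of genes at large is therefore not known. No paired analysis was possible because there is 1 group. Depth limits the members under 1 FPKM most: their order and their ratios between libraries rest on few fragments, and a value listed at 0 does not show absence.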
